A study of Mus musculus with 4 samples.

Results

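The Prrc2 genes Prrc2a, Prrc2b and Prrc2c were examined in IGF2BP3 eCLIP-seq data of mouse testis, in which RNA crosslinked to a protein is recovered with an antibody and sequenced. The 3 genes were selected on measured values of these data, since coding exons near the 3′ end of Prrc2a carried clusters of reads enriched in the IGF2BP3 IP in both replicates. All read clusters whose centre lay inside 1 of the 3 genes on the strand of that gene were taken, 237 of 337234 clusters in replicate 1 and 196 of 216354 in replicate 2. All values below that compare the IP with its input are therefore a description. Each of 2 replicates paired 1 IGF2BP3 IP library with 1 size-matched input library (SMInput), 4 samples in all, so that there were 2 IP and 2 SMInput samples. The SMInput is RNA of the same lysate that was sequenced without antibody selection, and the IP used an antibody against IGF2BP3. Both groups came from testes of wild type C57BL/6 mice (C57BL/6J in the protocol) at 8 weeks of age, and a suspension made from 2 testes was crosslinked 3 times with UV at 400 mJ/cm2. The tissue was a mixture of germ cells and somatic cells, so more cells of a type and more RNA per cell cannot be told apart. The design text of the series speaks of 3 biological replicates and of an IgG antibody, whereas the sample labels describe 2 IP and 2 input samples without IgG, and the labels were followed.

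PRRC2 proteins are large, proline-rich and mostly disordered RNA-binding proteins that associate with the translation initiation machinery and with stress granules. PRRC2A is also known as a reader of m6A, the methylated adenosine of mRNA, and is required in male germ cells for meiosis. IGF2BP3 is an RNA-binding protein with RRM and KH domains that binds many mRNAs and is likewise described as a reader of m6A.

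For each cluster the authors deposited a log2(fold change) of IP over SMInput reads, scaled to the library totals, and a −log10(P value) of the same comparison. A cluster was called significant with a value of at least 2 for both. The library totals and the read numbers behind each cluster are inferred, as the whole numbers that return the deposited values. The inferred totals were 5133438 IP and 8706391 SMInput reads in replicate 1 and 4637612 IP and 16696122 SMInput reads in replicate 2. Clusters are not replicates, and neighbouring clusters can share reads. The germ cell markers were present, since all 8 of them (Prm1, Prm2, Tnp1, Tnp2, Acrv1, Sycp3, Ddx4 and Piwil1) held clusters in both replicates. Of the 5 Sertoli cell markers, 5 held clusters in replicate 1 and 4 in replicate 2, where Rhox5 had 0, and all 5 Leydig cell markers held clusters in both. A significant cluster was found in both replicates for 2 of the 8 germ cell markers, Acrv1 and Ddx4, and for 0 of the Sertoli and 0 of the Leydig cell markers, beside 21.9% of all protein-coding genes. In single replicates, 1 Sertoli cell marker and 2 Leydig cell markers had a significant cluster in replicate 1, and again 1 and 2 in replicate 2, of 5 markers each. The shares of all protein-coding genes were 26.1% and 36.8%.

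In replicate 1, 15 of the 237 clusters in the Prrc2 genes were significant (6.33%), beside 4.92% of all clusters. In replicate 2, 20 of the 196 clusters were significant (10.2%), beside 13.2% of all clusters. The genes differed in where these clusters lay. Those of Prrc2a were in coding exons, most of those of Prrc2b were in the 3′UTR, and those of Prrc2c were scattered over coding exons, introns and the 3′UTR. The clusters of the genes as a whole, significant or not, also differed in their CDS shares. These were 92.2% and 93.7% in Prrc2a, 34.9% and 42.3% in Prrc2b, and 55.8% and 62.6% in Prrc2c. Of all Prrc2b clusters, 18.6% in replicate 1 and 30.8% in replicate 2 were in the 3′UTR, and 41.9% and 15.4% were in introns. Sites where significant clusters of the replicates overlapped by at least 1 base numbered 4 in Prrc2a, 1 in Prrc2b and 0 in Prrc2c. Over the whole tables, the share of significant clusters with such an overlap was 33.0% in replicate 1 and 18.5% in replicate 2. In the 3 genes together, 7 of 15 and 7 of 20 significant clusters had such an overlap. For Prrc2a alone, on which the genes were selected, it was 6 of 10 and 5 of 6. Over the 3 genes, 12 of 15 significant clusters of replicate 1 (80.0%) and 9 of 20 of replicate 2 (45.0%) were in the CDS. Among all significant clusters these shares were 28.4% and 20.4%. Of all clusters in the 3 genes, significant or not, 65.8% in replicate 1 and 72.4% in replicate 2 were in the CDS, so the share of the significant clusters was the higher in replicate 1 and the lower in replicate 2. Of the significant CDS clusters, 10 of 12 in replicate 1 and 6 of 9 in replicate 2 were those of Prrc2a, by which the genes were selected, so the shares are a description.

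**Figure D1:**
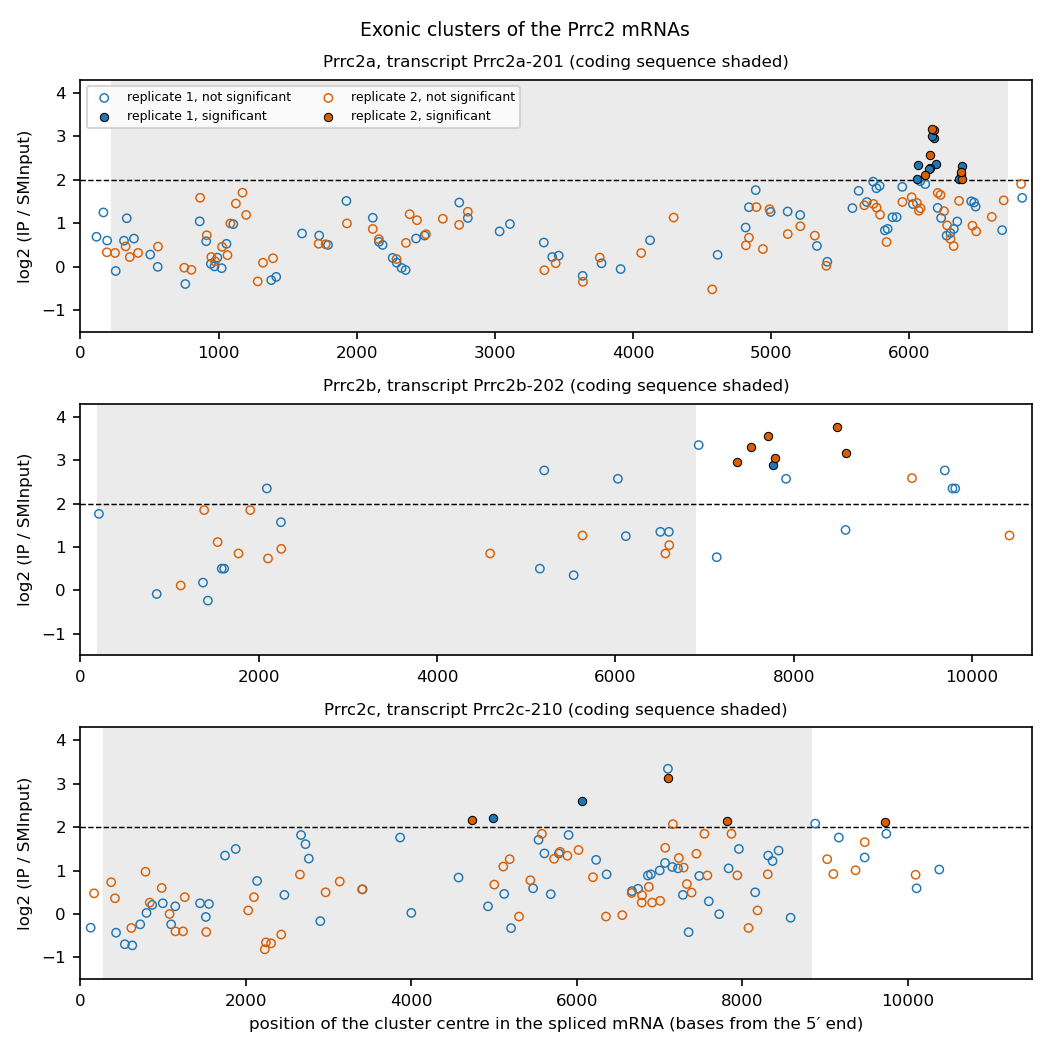
Each circle is a cluster in an exon of Prrc2a, Prrc2b or Prrc2c, placed by its centre along the spliced mRNA in bases (horizontal axis) and by the log2 ratio of IP to SMInput (vertical axis). Colours are the replicates, filled circles are significant clusters, shading is the coding sequence and the dashed line is the threshold of 2, and the significant clusters of Prrc2a sit close together in the last part of its coding sequence while those of Prrc2b lie in the 3′UTR.

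Prrc2a lies on the minus strand at chr17:35149076-35164897 of mm10, and its transcript Prrc2a-201 has 31 exons, an mRNA of 6888 bases and a 3′UTR of 185 bases. It held 90 clusters in replicate 1 and 79 in replicate 2, of which 10 (11.1%) and 6 (7.59%) were significant. All of these 10 and 6 clusters were in the CDS, as were 92.2% and 93.7% of all Prrc2a clusters. Some clusters of exon 31 were called 3′UTR by another transcript, although their centres lay before the stop codon of Prrc2a-201. These were chr17:35149241-35149343 in replicate 1, and chr17:35149230-35149333 and chr17:35149334-35149400 in replicate 2. Prrc2a was covered deeply in both kinds of library. The median cluster held 59 IP and 49 SMInput reads in replicate 1, and 46.5 IP and 89 SMInput reads in replicate 2, whereas the median over all clusters was 4 IP reads in either replicate, with 2 and 6 SMInput reads. At this depth the P value passed in 52 clusters of replicate 1 and 44 of replicate 2, and the fold change then decided the call. The P value but not the fold change passed in 42 and 38 clusters, and the reverse in 0 and 0. Of the Prrc2a clusters, 83.3% in replicate 1 and 91.1% in replicate 2 overlapped a cluster of the other replicate. The shares over all clusters, which held far fewer reads, were 24.9% and 37.3%. With this many clusters on an mRNA of 6888 bases, overlaps can also arise without like placement, which was not tested.

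The significant clusters were not spread evenly along the Prrc2a mRNA. In exons 1 to 25 the median log2(fold change) was 0.61 over 61 clusters in replicate 1 and 0.55 over 55 clusters in replicate 2. The highest values there were 1.96 and 1.70, with 0 significant clusters. In exons 26 to 29 the median was 1.87 over 24 clusters in replicate 1 and 1.51 over 19 clusters in replicate 2, and all significant clusters were here. The last exons, 30 and 31, had medians of 1.38 over 3 clusters and 1.34 over 4 clusters, again with 0 significant. Exons 26 to 29 were set apart because they hold the significant clusters, so their higher medians and the counts of 0 elsewhere follow in part from that choice. The threshold was passed within a short stretch that ended before the stop codon. Exon 24, ahead of the stretch, reached 1.96 in replicate 1 and 1.44 in replicate 2.

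In replicate 1 the significant clusters spanned chr17:35149786-35150513, which is 337 bases of spliced mRNA in exons 26 to 29. In replicate 2 they spanned chr17:35149789-35150302, or 294 spliced bases in exons 27 to 29. The stretch between the outermost shared sites, chr17:35149786-35150255, covered 250 spliced bases, of which the 4 sites together took 67. It held codons 1970 to 2053 of 2158 and ended 315 bases before the stop codon.

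The 4 shared sites of Prrc2a were short and lay at exon borders. In the order of the mRNA, the site with the most reads was at the 3′ end of exon 27, chr17:35150228-35150255. It was made of 3 clusters with log2(fold change) values of 2.25 to 3.001 in replicate 1 and of 1 cluster with 2.58 in replicate 2. The cluster with the most IP reads held 180 IP and 63 SMInput reads in replicate 1, and 183 IP and 110 SMInput reads in replicate 2. The −log10(P value) reached 31.8 and 62.8, the highest among the Prrc2 genes in each replicate. The next site began at the first base of exon 28, chr17:35150099-35150121. It had 2.95 in replicate 1, with 105 IP and 23 SMInput reads, and 3.14 and 3.16 in the 2 clusters of replicate 2, with 88 IP and 36 SMInput reads in the larger. Both sites adjoin in the spliced mRNA, at bases 6136 to 6163 and 6164 to 6186.

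The remaining sites form a similar pair at the next exon junction. The site at the 3′ end of exon 28, chr17:35149909-35149915, had a log2(fold change) of 2.13 in replicate 1 (88 IP and 34 SMInput reads) and 2.17 in replicate 2 (55 IP and 44 SMInput reads). The site at the start of exon 29, chr17:35149786-35149794, had 2.31 in replicate 1 (73 IP and 25 SMInput reads) and 2.02 in replicate 2 (45 IP and 40 SMInput reads). These also adjoin in the mRNA, at bases 6370 to 6376 and 6377 to 6385. Of the significant Prrc2a clusters, 5 of 10 in replicate 1 and 3 of 6 in replicate 2 reached within 1 base of an exon end, beside 25 of 88 and 21 of 78 of all exonic Prrc2a clusters. Whether clusters of spliced reads were divided at junctions was not tested.

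Between these pairs, the middle of exon 28 held many IP reads but did not reach the threshold. In replicate 1 the 6 clusters from base 35149930 to base 35150083 had log2(fold change) values between 0.71 and 1.35. The cluster at chr17:35150034-35150076 had the most IP reads of any Prrc2a cluster in replicate 1, 191, but also 149 SMInput reads. In replicate 2 the clusters from base 35149951 to base 35150083 had log2(fold change) values between 0.47 and 1.70. Of these, the cluster at chr17:35150026-35150042 had 169 IP and 251 SMInput reads and a log2(fold change) of 1.28. The positions with the most IP reads and with the highest fold change therefore differed within exon 28, and the SMInput was lower at the borders of this exon. A cluster of 1 base at position 35150090 was significant in replicate 1 alone, at 2.38 with 52 IP and 17 SMInput reads.

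**Figure D2:**
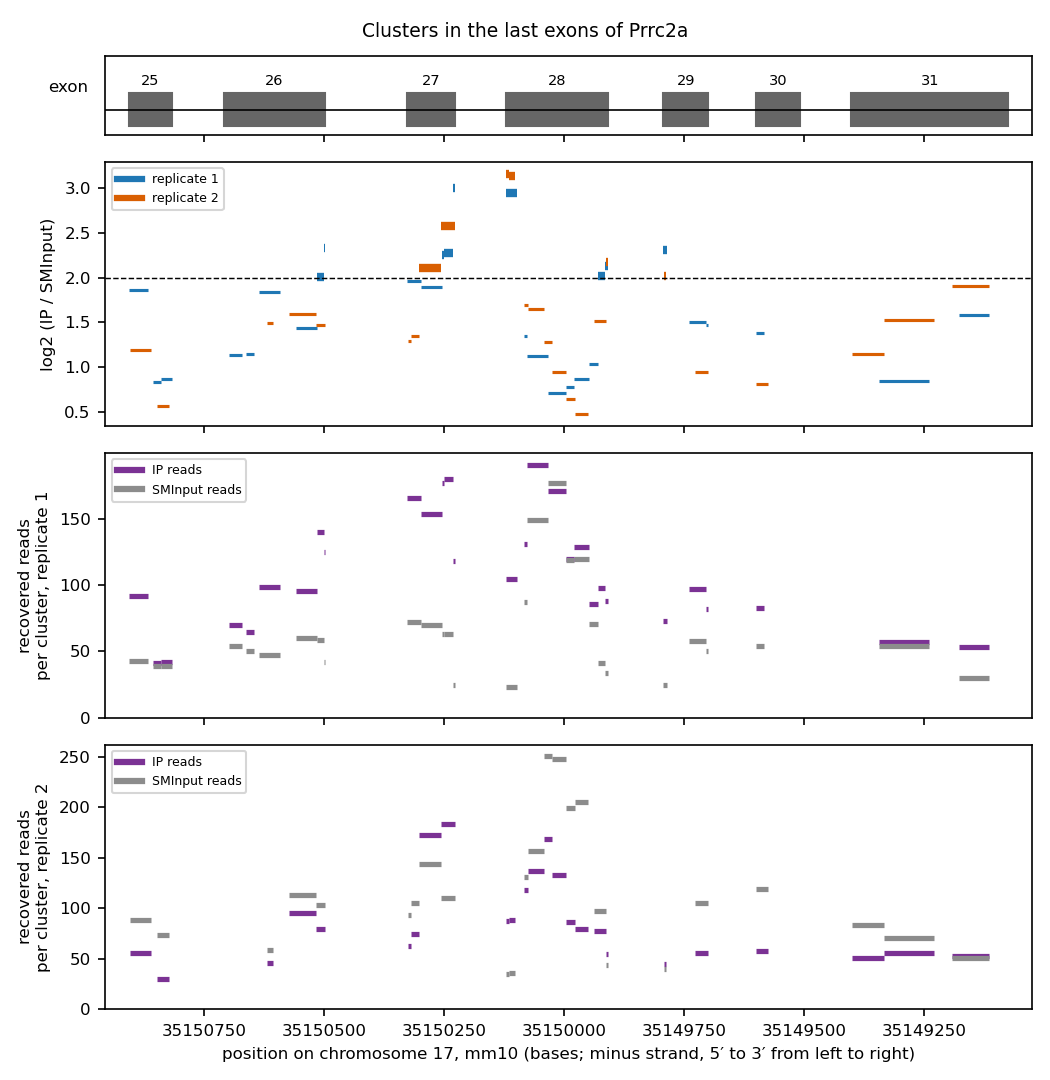
Exons 25 to 31 of Prrc2a are drawn to scale along chromosome 17 in bases, above the log2 ratio of IP to SMInput of each cluster (thick lines are significant clusters, the dashed line is the threshold of 2) and its recovered IP and SMInput reads in each replicate. Each line spans its cluster, and the clusters above the threshold lie in exons 26 to 29, several of them at exon borders, while the middle of exon 28 holds many reads of both kinds.

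Values close to the threshold show how narrowly some calls were made. In replicate 1 the lowest significant value of Prrc2a was 2.01, at chr17:35150500-35150513 in exon 26, and the highest value below was 1.97, at chr17:35150298-35150326 in exon 27. In replicate 2 the lowest significant value was 2.02, at the exon 29 site, and the highest below was 1.90, at chr17:35149117-35149193 in the 3′UTR. The significant clusters of exon 26 were thus found in replicate 1 alone, where they reached 2.34. The clusters of that exon in replicate 2 reached 1.60.

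The exons with the shared sites are given here from the mm10 genome, since they carry the clusters the results rest on. Exon 27 is chr17:35150228-35150326, exon 28 is chr17:35149909-35150121 and exon 29 is chr17:35149700-35149794, all written 5′ to 3′ on the minus strand, and capitals mark the bases inside significant clusters of both replicates.
Prrc2a exon 27: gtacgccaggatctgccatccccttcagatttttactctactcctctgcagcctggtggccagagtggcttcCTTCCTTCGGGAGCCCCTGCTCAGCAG
Prrc2a exon 28: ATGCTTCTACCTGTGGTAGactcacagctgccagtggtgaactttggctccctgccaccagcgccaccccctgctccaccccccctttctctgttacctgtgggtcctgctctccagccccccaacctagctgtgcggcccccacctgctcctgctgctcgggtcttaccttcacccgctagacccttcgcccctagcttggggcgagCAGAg
Prrc2a exon 29: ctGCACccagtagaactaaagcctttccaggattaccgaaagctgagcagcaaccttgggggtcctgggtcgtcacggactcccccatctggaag
The capitals cover 27 of 99 bases in exon 27, 23 of 213 in exon 28 and 4 of 95 in exon 29. The GC content of the exons was 58.6%, 63.8% and 56.8%.

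Short sequences known from IGF2BP and m6A studies were searched on the strand of the cluster, in windows of 100 genomic bases around each cluster centre, which run into introns where a centre is near an exon end. The letters GAACA were in 0 of the 10 Prrc2a windows of replicate 1 and 0 of the 6 of replicate 2. The same held for AAACC, for the letters CATTT, for the letters CATAC, and for GGAC, a form of the m6A consensus. Other forms of that consensus were not searched, so whether the stretch lacks it was not tested. Among all CDS clusters the shares with GAACA were 11.3% and 11.3%, and those with GGAC were 33.0% and 32.8%. AAACC was in 8.11% and 7.90%, CATTT in 10.5% and 10.4%, and CATAC in 4.08% and 3.94% of those windows. TGCAC was in 1 Prrc2a window of either replicate, beside 8.68% of all CDS windows in either. It occurred once in the 618 spliced bases of exons 26 to 29, at chr17:35149789-35149793, inside the exon 29 site. In the same spliced bases, GGAC occurred 1 time, outside the stretch, and the other letters searched occurred 0 times. The windows overlap each other, and the absence of these letters from them says nothing of the protein or of m6A. Their median GC content was 55% in replicate 1 and 53% in replicate 2, with 51% over all CDS clusters and 49% over the significant CDS clusters in either replicate.

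Some of the genes around Prrc2a held clusters as well. Bag6, a chaperone gene on the opposite strand whose end is 1754 bases away, had 52 clusters in replicate 1 and 55 in replicate 2, with highest values of 1.68 and 1.67 and 0 significant. There were 0 clusters on the opposite strand within Prrc2a in either replicate. Assigned to the nearest RefSeq transcription start site on either strand, 2 significant Prrc2a clusters of replicate 1 and 0 of replicate 2 were given to Prrc2a. These 2 lay 14371 and 14379 bases from its start site. The other 8 significant clusters of replicate 1 and the 6 of replicate 2 were given to Bag6. Their distances from the Bag6 start sites were 14046 to 14508 and 14046 to 14535 bases. The assignment therefore turned on distances to far start sites. Aif1, a macrophage gene on the same strand, had 10 clusters in either replicate, with 1 significant in replicate 1 and 0 in replicate 2. In intron 2, the snoRNA gene Gm23442 had log2(fold change) values of −0.98 and −0.78 in replicate 1 and −0.88 in replicate 2, where the SMInput was higher than the IP. Of 22 genes of the surrounding class III region of the major histocompatibility complex that were matched, 6 in replicate 1, 6 in replicate 2 and 4 in both had a significant cluster. Clusters of any kind were found in 16 of them in replicate 1 and 15 in replicate 2, and the median over those genes was 1.24 and 1.36. Of all 21951 protein-coding genes, 26.1% in replicate 1, 36.8% in replicate 2 and 21.9% in both had a significant cluster.

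Prrc2b lies on the plus strand at chr2:32151082-32234537, and its transcript Prrc2b-202 has 32 exons and a 3′UTR of 3780 bases. It held 43 clusters in replicate 1 and 26 in replicate 2, of which 2 (4.65%) and 7 (26.9%) were significant. None of the significant clusters was in the CDS, where 15 and 11 clusters were found. Prrc2b was covered thinly, with a median of 4 IP reads per cluster in either replicate, beside 2 SMInput reads in replicate 1 and 4 in replicate 2. In contrast to Prrc2a, the P value decided the call, as 20 clusters in replicate 1 and 6 in replicate 2 passed the fold change without passing the P value. The reverse held for 0 and 0.

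The 3′UTR of Prrc2b had 8 clusters in either replicate, with a median log2(fold change) of 2.46 in replicate 1 and 3.11 in replicate 2. Of these, 1 and 6 were significant. The shared site was chr2:32231538-32231674 in the last exon. It had 2.88 in replicate 1 with 26 IP and 6 SMInput reads. Its 2 clusters in replicate 2 had 3.55 and 3.05, with 23 IP and 10 SMInput reads in the larger. This was the Prrc2b site above the threshold in both replicates, 876 bases after the stop codon by the centre of the replicate 1 cluster. Farther along, at chr2:32232371-32232503, replicate 2 had a cluster of 3.17 with 30 IP and 12 SMInput reads. The overlapping cluster of replicate 1, chr2:32232368-32232494, had 1.39 with 17 IP and 11 SMInput reads. Just outside the threshold in replicate 1 was a cluster of 3.35 at chr2:32230746-32230823, with 6 IP reads, 1 SMInput read and a −log10(P value) of 1.91.

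The other significant clusters of Prrc2b lay over snoRNA genes in its introns. In replicate 1 the cluster at chr2:32221977-32222056 over Gm22192 in intron 25 had 3.57, with 7 IP reads and 1 SMInput read. In replicate 2 the cluster at chr2:32225681-32225733 over Gm25632 in intron 28 had 2.43, with 6 IP and 4 SMInput reads and a −log10(P value) of 2.01, just inside the threshold. These genes are identical over all 85 bases, so reads within them cannot be told apart. They are shown for that reason, 5′ to 3′ on the plus strand of mm10, Gm22192 at chr2:32221970-32222054 and Gm25632 at chr2:32225653-32225737, with the bases of the significant cluster in capitals.
Gm22192: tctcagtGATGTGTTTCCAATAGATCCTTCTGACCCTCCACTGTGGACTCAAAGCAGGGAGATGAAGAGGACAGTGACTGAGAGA
Gm25632: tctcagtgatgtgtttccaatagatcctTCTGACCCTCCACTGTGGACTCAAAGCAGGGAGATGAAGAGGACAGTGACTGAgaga
Each was significant in a single replicate. In the other replicate, Gm22192 had 2.59 with 5 IP and 3 SMInput reads, just outside the threshold at a −log10(P value) of 1.82, and Gm25632 had 0.08.

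Prrc2c lies on the minus strand at chr1:162670725-162740556, and its transcript Prrc2c-210 has 35 exons and an mRNA of 11502 bases. It held 104 clusters in replicate 1 and 91 in replicate 2, the most of the 3 genes. Of these, 3 (2.88%) and 7 (7.69%) were significant, with 2 and 3 in the CDS, 1 and 3 in introns, and 0 and 1 in the 3′UTR. The significant clusters of the replicates did not overlap, and with 3 and 7 clusters the shares of 33.0% and 18.5% over the whole tables would amount to few overlaps. The median log2(fold change) was 1.07 in replicate 1 and 0.85 in replicate 2, and the median cluster held 7 IP reads in either replicate.

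In replicate 1 the significant Prrc2c cluster with the most reads was at chr1:162697511-162697556 in exon 19, with 2.61 and 18 IP and 5 SMInput reads. In replicate 2 it had no overlapping cluster. Just inside the thresholds was chr1:162702348-162702393 in exon 17, with 2.22 and a −log10(P value) of 2.24. Just outside was chr1:162673327-162673368 in the 3′UTR, with 2.08 and a −log10(P value) of 1.95. The nearest case of a shared position was in exon 26. There, chr1:162682489-162682525 had 3.13 in replicate 2, with 17 IP and 7 SMInput reads and a −log10(P value) of 7.63. The overlapping cluster of replicate 1, chr1:162682503-162682521, had 3.35 but rested on 6 IP reads and 1 SMInput read, with a −log10(P value) of 1.91. In the 3′UTR, chr1:162672466-162672532 had 2.13 in replicate 2 and the overlapping cluster of replicate 1 had 1.85, each with 17 IP reads. Neither position was significant in replicate 1, where the first missed the P value and the second the fold change. In intron 5 and intron 1, clusters of 3.85 in replicate 2 rested on 4 IP reads and 1 SMInput read each, just inside the threshold at a −log10(P value) of 2.04.

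The proteins of the family are related, so the codons at the Prrc2a stretch were followed to Prrc2b and Prrc2c. In global alignments of the annotated coding sequences as translated, 45.8% of the aligned residues of PRRC2A and PRRC2B were identical, 43.6% of those of PRRC2A and PRRC2C, and 44.4% of those of PRRC2B and PRRC2C. The 84 residues encoded by the shared stretch matched residues 2061 to 2132 of PRRC2B, in exons 28 to 30, and residues 2521 to 2609 of PRRC2C, in exons 30 to 32. Of the aligned residues there, 28 of 69 were identical in PRRC2B (40.6%) and 26 of 71 in PRRC2C (36.6%). Counted over all 84 residues, identity was 33.3% with PRRC2B and 31.0% with PRRC2C. The medians over all windows of this length along PRRC2A were 35.7% and 38.1%, so the stretch was not above the usual level of identity.

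None of the clusters on the matching codons was significant. Prrc2b had 2 clusters there in either replicate, at 1.35 and 1.35 in replicate 1 and at 0.85 and 1.04 in replicate 2. The deepest held 9 IP reads. These clusters lay in exons 29 and 30 of Prrc2b. Its codons in exon 28, which match the adjoining Prrc2a sites with the highest fold changes, held 0 clusters in either replicate. Enrichment of Prrc2b at that position was therefore not measured. Prrc2c had 3 clusters on its matching codons in either replicate, between 0.50 and 1.499 in replicate 1 and between −0.32 and 1.85 in replicate 2. The deepest of these, chr1:162678115-162678195 in replicate 1, held 30 IP and 18 SMInput reads. The cluster of 1.85 in replicate 2, at chr1:162679490-162679542 in exon 30, was just outside the fold change threshold with the P value passed. It adjoined a significant cluster of 2.14 with 11 IP and 9 SMInput reads at chr1:162679543-162679608, which lies on codons matching the longer stretches of the single replicates. The overlapping cluster of replicate 1 had 1.05. Whether the genes differ at these codons was not tested.

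The longest matching exon part of each gene is given from mm10, to set the nucleotides beside those of Prrc2a, 5′ to 3′ on the strand of the gene. They are chr2:32226231-32226386 in exon 29 of Prrc2b on the plus strand and chr1:162678010-162678228 in exon 31 of Prrc2c on the minus strand. Capitals mark codons for residues identical to PRRC2A.
Prrc2b exon 29: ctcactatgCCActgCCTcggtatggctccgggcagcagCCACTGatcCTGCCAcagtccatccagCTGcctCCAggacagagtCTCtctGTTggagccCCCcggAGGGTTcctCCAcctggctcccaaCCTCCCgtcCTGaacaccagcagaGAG
Prrc2c exon 31: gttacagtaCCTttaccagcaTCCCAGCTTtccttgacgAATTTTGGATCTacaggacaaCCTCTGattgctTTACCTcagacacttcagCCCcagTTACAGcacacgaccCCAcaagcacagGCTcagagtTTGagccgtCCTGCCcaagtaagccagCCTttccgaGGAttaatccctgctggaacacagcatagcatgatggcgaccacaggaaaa

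By the number of significant CDS and 3′UTR clusters in each replicate and the highest value of a CDS cluster shared by the replicates, Prrc2a was compared with the protein-coding genes that had such a CDS cluster, 599 with Prrc2a itself. The gene closest to it was Odf1, which encodes a protein of the outer dense fibres of the sperm tail, at a Euclidean distance of 0.34 over 6 values, with each number of clusters taken as log2(1 + number). Odf1 had 11 significant CDS clusters in replicate 1 and 7 in replicate 2, beside 10 and 6 in Prrc2a, and 0 in the 3′UTR. Next came Pcbp2, an RNA-binding protein gene with KH domains, at 0.62, then 4921507P07Rik at 0.68, Prr22 at 0.74 and Boll, a germ cell RNA-binding protein gene of the DAZ family, at 0.77. At least as many significant CDS clusters as in Prrc2a were found in 53 of all 21951 protein-coding genes in replicate 1 and 175 in replicate 2, Prrc2a included.

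Genes of processes in which PRRC2 proteins act were counted in the same way. Of 22 stress granule genes, 20 had a significant cluster in replicate 1, 22 in replicate 2 and 20 in both. Of 22 genes of translation initiation and scanning, 10, 11 and 8 did, and the shares of all protein-coding genes were the 26.1%, 36.8% and 21.9% given above. All 22 genes of each list held clusters in both replicates, whereas the protein-coding genes include some without any cluster. Whether the lists differ from genes of like expression and length was not tested. The median over genes of the median log2(fold change) of their clusters was 1.35 in replicate 1 and 1.43 in replicate 2 for the stress granule genes, and 0.76 and 0.83 for the initiation genes. The median over all clusters was 1.499 in replicate 1 and 1.53 in replicate 2. Among the stress granule genes, Ubap2 had 22 significant clusters in replicate 1 and 27 in replicate 2, 17 of them in the CDS in either replicate. G3bp1 had 0 in replicate 1 and 6 in replicate 2. Among the initiation genes, Eif4g3, which encodes a form of eIF4G, had 19 and 25, of which 9 and 6 were in the CDS. Eif4g2, which encodes a relative of eIF4G, had 10 and 8, of which 8 and 6 were in the CDS, while Eif4a1, an RNA helicase gene, had 0 and 0.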

How the data were processed

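IGF2BP3 IP and SMInput libraries of testis were compared within 2 replicates. Per the submitters' processing notes and the methods, the authors trimmed adapters with cutadapt, removed ribosomal RNA reads with Bowtie2, aligned the rest to mm10 with STAR, collapsed PCR duplicates and called clusters with Clipper. The authors deposited the −log10 of a P value for IP against SMInput reads in each cluster, listed from 0 to 400. They also deposited the log2 of the scaled read ratio. Both were used as deposited, and sample groups were not tested against each other. Read numbers were recovered as the whole numbers that return both values (Fisher's exact test below 5 reads, otherwise chi-square). The inferred totals returned all 60 P values checked in each replicate. The next best totals returned 0 of them in replicate 1 and 7 in replicate 2. Several solutions remained for 99 clusters in replicate 1 and 18 in replicate 2, and clusters listed at 0 or 400 were given no reads. Genes and regions came from GENCODE M21, with 3′UTR before CDS where transcripts differed, and sequences from GRCm38 of RefSeq. Proteins were translated from the GENCODE CDS, not taken from RefSeq as planned, and aligned with BLOSUM62 (gap penalties 10 and 0.5). Members and lists were chosen with earlier results of these data known. Ncr3 was not matched. Named genes were the members, their neighbours, the 5 genes most like Prrc2a and clusters at the thresholds. The genes named from the lists were chosen after their values were seen. Python 3.11.15, pandas 2.3.3, SciPy 1.17.1, Biopython 1.88 and pysam 0.24.0 were used.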

Additional observations from a re-analysis of the deposited data

How the results depend on the processing

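The 10 counts and shares were each recalculated under the alternative settings that apply to them, which gave 60 values, 56 of them planned and 4 from a setting chosen after seeing the data. In 32 of the 60, counts stayed within 1.5 times and the CDS share within the 95% Wilson interval of its counting error. That interval ran from 43.6% to 74.4%. The CDS share was not recalculated without 1 replicate, and the shares of the single replicates were 80.0% and 45.0%. With both thresholds at 3, significant clusters numbered 1 and 2 in Prrc2a, 0 in Prrc2b in replicate 1, and 0 and 1 in Prrc2c, and shared sites fell to 0 in Prrc2a and 0 in Prrc2b. With the log2(fold change) lowered to 1, they numbered 41 and 33 in Prrc2a and 12 and 16 in Prrc2c, with 14 shared sites in Prrc2a and 3 in Prrc2c. With at least 10 IP reads, 1 remained in Prrc2b in replicate 1 and 4 in Prrc2c in replicate 2. Assigned by the nearest start site, 2 and 0 clusters fell to Prrc2a, 0 and 0 to Prrc2b, and 1 and 3 to Prrc2c, with 0 shared sites in Prrc2a and 0 in Prrc2b. Without 1 replicate, sites of the other alone numbered 4 to 6 in Prrc2a, 2 to 6 in Prrc2b and 3 to 7 in Prrc2c. Without clusters over small RNA genes, the setting chosen after seeing the data, Prrc2b had 1 in replicate 1. These results come from no test across samples. Each deposited P value compares the reads of an IP with those of the SMInput of its own replicate, and a paired fit over the inferred reads of the 4 samples was not run. The calls of Prrc2b and Prrc2c rest on few reads, and some calls of Prrc2a on fold changes near the threshold.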
